A study of Mus musculus with 12 samples.

Results

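The genes described are the 84 mouse genes named for proteins of the cytosolic ribosome, out of 25965 genes listed in 12 RNA sequencing libraries of sorted mouse skin cells. They were taken by name alone, as symbols that start with Rpl or Rps followed by a number, together with Rplp0, Rplp1, Rplp2 and Rpsa. Of these, 43 encode proteins of the large subunit, 31 proteins of the small subunit, 3 proteins of the stalk, and 7 are paralogue-type genes, which resemble another ribosomal protein gene (Rpl3l, Rpl7l1, Rpl10l, Rpl22l1, Rpl39l, Rps27l and Rps4y2). The question of the series is the role of EGFR, a receptor tyrosine kinase for epidermal growth factor, in differentiation of the hair shaft.

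There were 6 groups of 2 libraries each. In hair follicle stem cells (HFSC), libraries L95 and L97 carried the genotype EGFR_delta_LGR5 and L94 and L136 the floxed, undeleted genotype EGFR_fl_fl. In outer root sheath cells (ORS), E358 and E359 carried EGFR_delta_ep, and E341 and E344 carried EGFR_fl_fl. In the cells abbreviated IFE, E358 and E359 carried EGFR_delta_ep, and E341 and E360 carried EGFR_fl_fl. No source used here gives the Cre lines, the ages of the mice or any pooling. The HFSC deletion is named for Lgr5 and the others for the epidermis, so knockouts of HFSC differ from those of ORS and IFE in the allele as well as the cells. Whether libraries of 1 group stem from different animals is not labelled, and p-values then reflect only the variation among these libraries, which may be technical.

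A eukaryotic ribosome is built from ribosomal RNA and many small proteins, most of them present in a single copy. The large subunit forms peptide bonds, the small subunit reads the messenger RNA, and the stalk, made of Rplp0, Rplp1 and Rplp2, recruits translation factors. The messenger RNAs of these proteins start with a run of pyrimidines, the TOP motif, through which mTOR and LARP1 control their translation, and the transcription factor Myc is a known activator of the same genes. In the skin, hair follicle stem cells are known for slow division and a low rate of protein synthesis.

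Library totals were 39.9 to 60.9 M reads, and reads in genes were 11.4 to 27.7 M. Reads in genes were 50.6% to 54.6% of the total in ORS libraries, against 26.9% to 29.6% in HFSC and IFE libraries. Levels are given as CPM, reads per M reads in genes, and were also divided by exon length where genes are compared with each other. The label pairs IFE with the inner root sheath, and 5 markers of that layer gave a mixed answer. The keratins Krt25 and Krt28 had 0 reads in all 4 IFE libraries, and Krt71 had reads in 1 of them (6.53 CPM). The keratins of the inner root sheath thus do not bear out that label. Tchh was at 1.31 to 15.4 CPM in IFE libraries, and the transcription factor Gata3 at 818 to 998 CPM, against 390 to 518 CPM in HFSC and 295 to 382 CPM in ORS libraries, so that the summed list was highest in IFE. The suprabasal keratin Krt10 was at 637 to 1340 CPM in IFE libraries, against 28.8 to 66.6 CPM in ORS libraries. Of the other keratins listed for IFE, Krt1 (686 to 1620 CPM) and Krt14 (8046 to 10711 CPM) were also highest there. Krt5 overlapped between IFE and HFSC. Cd34, a bulge stem cell marker, was at 1313 to 2141 CPM in HFSC libraries, at most 6.33 CPM in ORS libraries and 0 in IFE libraries. Of the other 5 follicle markers, Krt15 was also highest in HFSC, Sox9 and Lhx2 overlapped between HFSC and ORS, and 2 were higher in ORS: Lgr5 was at 129 to 346 CPM in HFSC and 349 to 508 CPM in ORS libraries, and Nfatc1 at 192 to 246 CPM in HFSC and 416 to 596 CPM in ORS libraries. Egfr was at 324 and 336 CPM in the HFSC libraries labelled knockout and 429 and 382 CPM in HFSC controls, so reads do not show its loss there. In ORS it was at 3.81 and 59.3 CPM in knockouts and 281 and 258 CPM in controls, and in IFE at 0 and 0.316 CPM in knockouts and 110 and 153 CPM in controls. Sex went with genotype: Xist, which silences 1 X chromosome in females, was at 1816 and 1298 CPM in IFE knockouts against 2.72 and 0.964 CPM in IFE controls, and at 5.70 and 1.21 CPM in HFSC libraries labelled knockout against 668 and 494 CPM in HFSC controls. In ORS, control E341 had 1.05 CPM and the other 3 libraries 1552 to 1673 CPM.

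Promoter sequences of 63 of the 84 genes were found in RefSeq (build GRCm38.p6, 1 start per gene). In the window from 20 bases before to 20 after the annotated start, 28 of 63 (44.4%) held a run of at least 8 C or T on the gene's strand, against 15.9% of all 27025 promoters. Runs of at least 8 A or G stood in 4 (6.35%), against 17.3% of all promoters. The sequence CCGGAA, the core recognised by ETS factors, was present on either strand of the 300-base promoter (250 bases before to 50 after the start) in 32 (50.8%), against 15.2% of all. CACGTG, the E-box bound by Myc, was present in 5 (7.94%), against 7.24% of all, and TATAAA in 6 (9.52%), against 14.2%. Where a run lies depends on which start is annotated, and 22 of the 63 starts were the same base as the gene start in the deposited files. Of these 22, 8 (36.4%) held a run of at least 8 C or T. The windows below are 6 of the 22. The longest run of C or T is in capitals. The annotated start follows the first 20 bases, so the runs of Rpl4 and Rps25 lie wholly before it. The first 4 hold a long run and belong to Rpl4, one of the genes with the most reads, and to Rpl14, Rps25 and Rps26, whose levels did not overlap between compartments; the last 2 hold only short runs.
Rpl4, chr9:64173367-64173406, plus strand: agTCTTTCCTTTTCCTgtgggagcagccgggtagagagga
Rpl14, chr9:120571497-120571536, plus strand: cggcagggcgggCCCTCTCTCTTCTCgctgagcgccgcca
Rps25, chr9:44407694-44407733, plus strand: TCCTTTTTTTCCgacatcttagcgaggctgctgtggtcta
Rps26, chr10:128626487-128626526, minus strand: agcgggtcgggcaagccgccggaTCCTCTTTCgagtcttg
Rpl24, chr16:55966255-55966294, plus strand: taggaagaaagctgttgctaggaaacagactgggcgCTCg
Rpl37a, chr1:72711240-72711279, plus strand: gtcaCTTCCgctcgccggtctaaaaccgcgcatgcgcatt

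Messenger RNAs of ribosomal proteins took up the smallest part of the reads in hair follicle stem cells and the largest in IFE cells. Their share of reads in genes was 1.89% and 1.92% in HFSC libraries labelled knockout and 1.87% and 1.80% in HFSC controls. In ORS it was 3.15% and 2.35% in knockouts and 2.69% and 2.78% in controls, and in IFE 3.91% and 3.44% in knockouts and 3.89% and 4.03% in controls. Every HFSC library lay below every ORS library, and every ORS library below every IFE library. Their means were 1.87% ± 0.05 in HFSC, 2.74% ± 0.33 in ORS and 3.82% ± 0.26 in IFE (SD, n = 4 each). Counting error was small beside this spread, since 95% Wilson intervals of single libraries were at most 0.0228 percentage points wide.

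**Figure D1:**
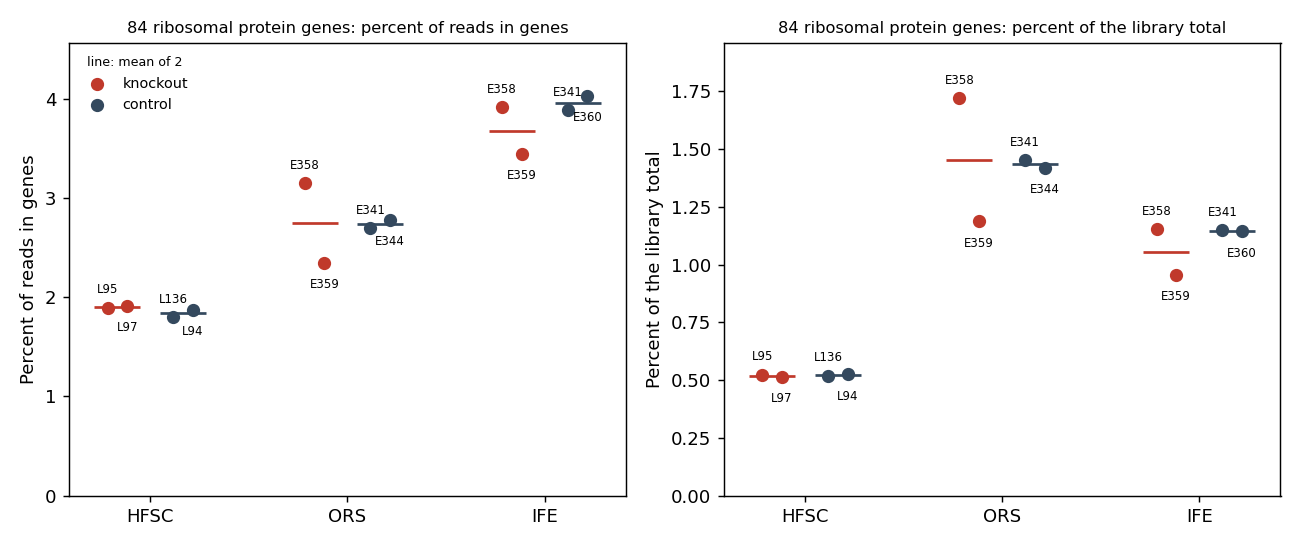
Summed reads of the 84 ribosomal protein genes in each library, as a percent of reads in genes (left) and of the library total (right), by compartment, with knockout and control libraries in separate columns and lines at the mean of 2. On the left HFSC libraries lie lowest (1.80% to 1.92%) and IFE libraries highest (3.44% to 4.03%); on the right ORS libraries lie highest (1.19% to 1.72%).

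The share was 1.95 percentage points lower in HFSC than in IFE, 0.872 lower in HFSC than in ORS, and 1.08 lower in ORS than in IFE. Each of these differences had p = 0.0286 in a two-sided exact permutation test, the smallest that 4 against 4 libraries can give, and p = 0.0667 after Benjamini-Hochberg adjustment over 7 tests of the share, which misses 0.05. As a percent of the library total, HFSC remained lowest at 0.520% ± 0.004, but ORS stood at 1.44% ± 0.22, above IFE at 1.101% ± 0.097 (SD, n = 4 each), so the order of ORS and IFE depends on the denominator. The HFSC libraries have numbers with L and all others numbers with E; what the letters mark is not labelled, and it cannot be told apart from the compartment. In bulk samples, fewer cells that make a transcript and less transcript per cell cannot be told apart.

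Gene by gene, the lower level in HFSC was shared by most of the ribosome. In HFSC against IFE, 58 of the 82 genes tested fell and 0 rose (limma, adjusted p under 0.05 over all genes), where 16.3% of all genes tested fell and 19.7% rose. The median log2 fold change of the 82 was -1.07, against 0.18 over all genes. Both subunits took part: 29 of 43 large subunit genes (median -0.999), 22 of 31 small subunit genes (median -1.11), 3 of 3 stalk genes (median -1.08) and 4 of the 5 paralogue-type genes tested (median -0.999) fell. All 4 HFSC libraries lay below all 4 IFE libraries for 63 of 82 genes, against 15.8% of all genes, and above them for 0, against 18.2%. Rpl10l, with 0 reads in every library, and Rpl3l, with reads only in ORS control E341, were too low to test. Both are known as variants of other tissues, testis and striated muscle.

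**Figure D2:**
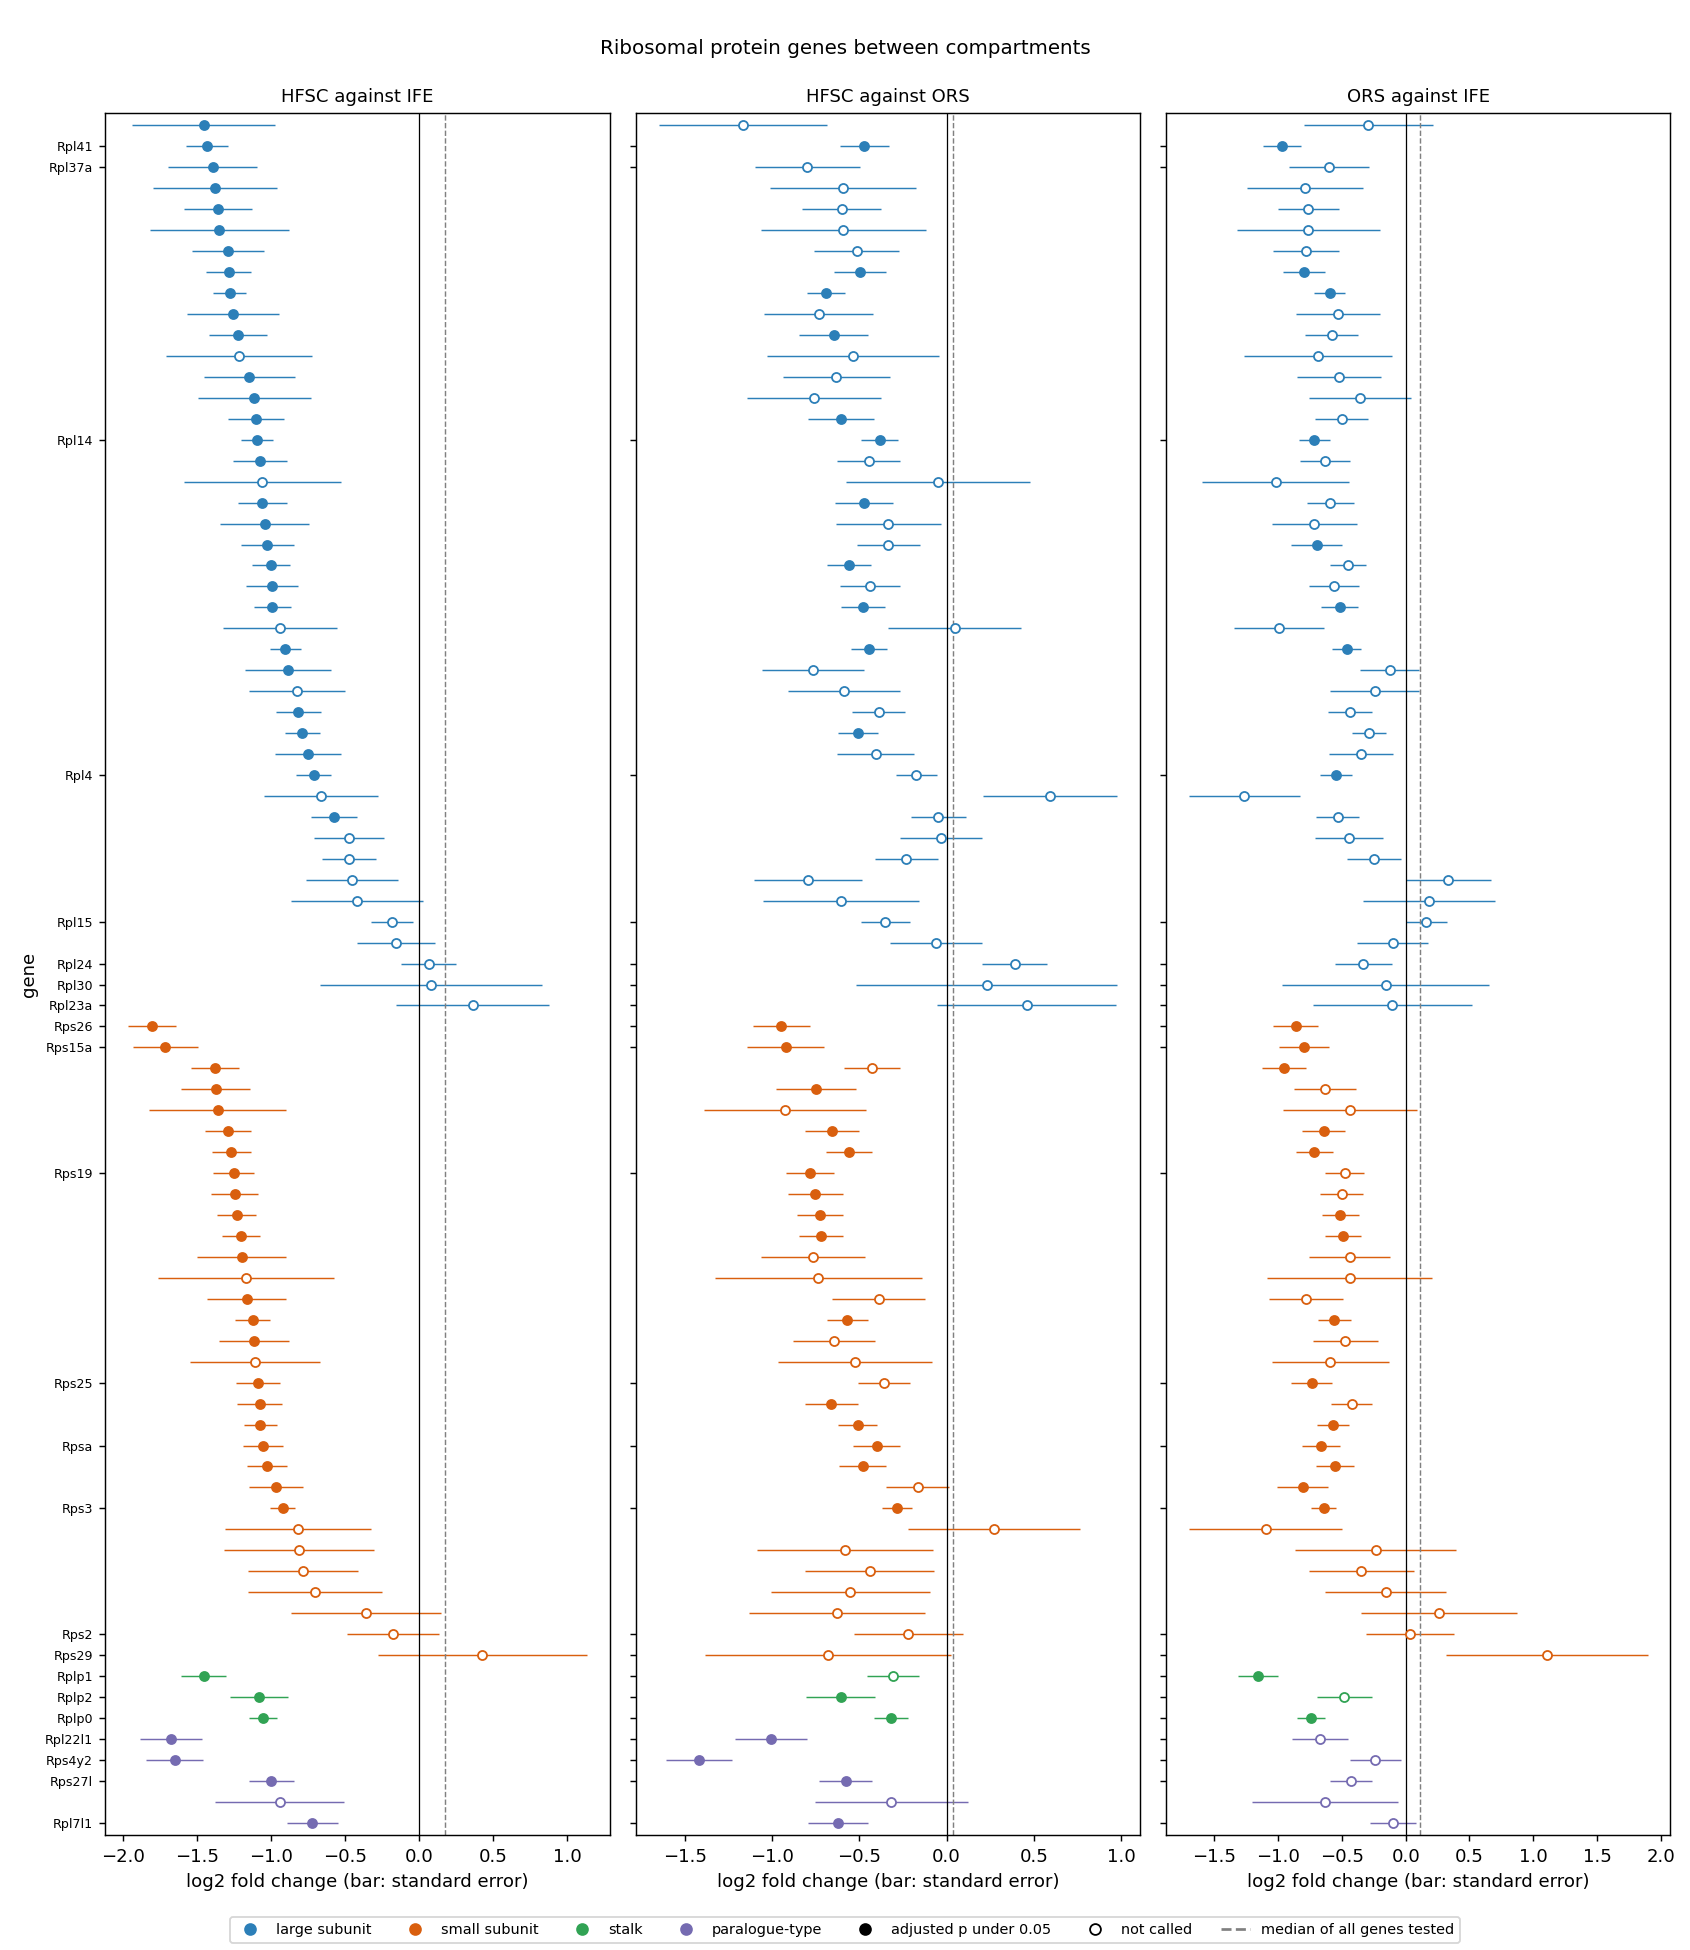
Log2 fold change of each ribosomal protein gene tested between compartments, sorted by role and by HFSC against IFE, with bars of 1 standard error; some of the genes described are labelled, filled points have an adjusted p under 0.05 and the dashed line is the median of all genes tested. Nearly all points of HFSC against IFE lie left of 0 (78 of 82), and Rpl24, Rpl30, Rpl23a and Rps29 lie right of it; points of ORS against IFE would lie mostly right of 0 on the deposited scale (76 of 82).

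Rps26, which lines the small subunit's exit channel for messenger RNA, changed most. It had 112 and 118 CPM in libraries labelled knockout and 112 and 100.5 CPM in control libraries of HFSC, 286 and 190.4 CPM in knockout and 215 and 217 CPM in control libraries of ORS, and 407 and 324 CPM in knockout and 374 and 404 CPM in control libraries of IFE. The compartments did not overlap. Its log2 fold change was -1.80 ± 0.16 (SE; adjusted p = 6.07e-06) for HFSC against IFE, -0.95 ± 0.16 (SE; adjusted p = 0.000902) for HFSC against ORS, and -0.86 ± 0.17 (SE; adjusted p = 0.00801) for ORS against IFE, where the deposited scale gave 0.13. Rps15a, another small subunit protein, had 61.4 and 63.5 CPM in libraries labelled knockout and 55.2 and 29.2 CPM in control libraries of HFSC, 119.5 and 84.7 CPM in knockout and 101 and 100.1 CPM in control libraries of ORS and 163 and 139 CPM in knockout and 154 and 192 CPM in control libraries of IFE, again without overlap. Control L136 was the lowest of all. The change in HFSC against IFE was -1.71 ± 0.22 (SE; adjusted p = 8.82e-05).

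Among large subunit genes, Rpl41, which encodes a very short basic peptide of the ribosome, averaged 1061 ± 74.1 CPM in HFSC, 1563 ± 255 CPM in ORS and 2795 ± 313 CPM in IFE (SD, n = 4 each), and fell by 1.43 in HFSC against IFE on the log2 scale. Rpl27, Rpl37a and Rpl11 were also among the 10 largest changes there, at -1.45 ± 0.48, -1.39 ± 0.30 and -1.38 ± 0.42 (log2, SE). Rpl11 is known for binding Mdm2 when ribosome assembly fails. Rps15, of the small subunit, was at -1.38 ± 0.16, and Rps4y2 and Rplp1 at -1.65 ± 0.19 and -1.46 ± 0.15. Rpl27 and Rpl11 rest on low levels: Rpl27 was at 3.21 to 5.97 CPM in HFSC and 7.80 to 22.9 CPM in IFE libraries.

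Among the stalk genes, Rplp1 and Rplp0 were at like levels per length in HFSC and ORS, and Rplp1 was the higher in IFE. In CPM per kb of exon, Rplp1 was at 685 ± 67.8 in HFSC, 903 ± 181 in ORS and 1826 ± 127 in IFE, and Rplp0 at 702 ± 23.5 in HFSC, 925 ± 59.2 in ORS and 1420.1 ± 75.5 in IFE (SD, n = 4 each). Rplp2 was at 53.4 to 129 CPM per kb over the 12 libraries. In CPM, Rplp0, the base of the stalk, was at 952 and 979.5 CPM in libraries labelled knockout and 909 and 974 CPM in control libraries of HFSC, 1332 and 1159 CPM in knockout and 1311 and 1220.1 CPM in control libraries of ORS and 2058 and 1808 CPM in knockout and 1916 and 1932 CPM in control libraries of IFE, with no overlap. Its log2 fold change was -0.74 ± 0.11 (SE; adjusted p = 0.00117) in ORS against IFE, or 0.25 on the deposited scale, and -1.05 ± 0.10 (SE; adjusted p = 7.37e-06) in HFSC against IFE. Rplp1, an acidic stalk protein, was at 363 and 315 CPM in libraries labelled knockout and 378 and 310.3 CPM in control libraries of HFSC, 584 and 382 CPM in knockout and 423 and 413 CPM in control libraries of ORS and 953 and 822 CPM in knockout and 911 and 959 CPM in control libraries of IFE. IFE stood apart from both others. Rplp1 had the largest change of the called genes in ORS against IFE, -1.15 ± 0.16 (SE; adjusted p = 0.000751), while in HFSC against ORS it was -0.31 ± 0.15 (SE; adjusted p = 0.152). Rplp2, its partner, was at -1.08 ± 0.20 in HFSC against IFE (adjusted p = 0.00117) and -0.48 ± 0.22 in ORS against IFE (adjusted p = 0.164).

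Rpsa, a small subunit protein also known as the laminin receptor, was at 210.2 and 260.1 CPM in libraries labelled knockout and 247 and 254 CPM in control libraries of HFSC, 396 and 290.5 CPM in knockout and 327 and 342 CPM in control libraries of ORS and 491 and 467 CPM in knockout and 525 and 480.4 CPM in control libraries of IFE, without overlap. Its change was -1.06 ± 0.14 (SE; adjusted p = 8.38e-05) in HFSC against IFE and -0.40 ± 0.14 (SE; adjusted p = 0.044) in HFSC against ORS.

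Of the paralogue-type genes, Rpl22l1, the paralogue of Rpl22, was at 54.9 and 67.8 CPM in libraries labelled knockout and 54.6 and 56.3 CPM in control libraries of HFSC, 175 and 94.3 CPM in knockout and 126 and 113 CPM in control libraries of ORS and 191 and 171 CPM in knockout and 168 and 198 CPM in control libraries of IFE. HFSC lay below both others, and ORS knockout E358 reached into the range of IFE. Its change in HFSC against IFE was -1.67 ± 0.21 (SE; adjusted p = 6.59e-05), against -0.57 ± 0.16 (SE; adjusted p = 0.0131) for Rpl22. The ratio of Rpl22l1 to Rpl22 in CPM was 0.161 to 0.225 in HFSC, 0.337 to 0.453 in ORS and 0.366 to 0.475 in IFE libraries. Rps4y2, a copy of the X-linked Rps4x that the current annotation calls Rps4l and lists as a processed pseudogene, had the largest fall in HFSC against ORS, -1.42 ± 0.19 (SE; adjusted p = 0.000178). Rps27l, a p53 target, and Rpl7l1 fell in HFSC against IFE by 0.999 and 0.72 on the log2 scale. Reads of such copies and of their parents may be exchanged where they share sequence, which was not tested. Of the short sequence words of Rps27l and of Rpl22, 0% recur in other annotated genes. The value was 1.66% for Rps4y2, 1.675% for Rpl7l1 and 50.8% for Rpl22l1. For the parents Rps4x, Rpl7 and Rps27 it was 34.8%, 28.2% and 57.9%.

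A few ribosomal protein genes did not follow. Rpl15, in the core of the large subunit, was at 115 and 111 CPM in libraries labelled knockout and 116 and 129 CPM in control libraries of HFSC, 137 and 155 CPM in knockout and 171 and 170.3 CPM in control libraries of ORS and 134 and 151 CPM in knockout and 121 and 116 CPM in control libraries of IFE. These ranges overlap for HFSC and IFE and for ORS and IFE, and ORS had the highest mean. Its change was -0.18 ± 0.14 (SE; adjusted p = 0.34) for HFSC against IFE, with a 95% interval of -0.49 to 0.12, above the median of -1.07 of all 82 genes. The 4 genes with fitted changes above 0 in HFSC against IFE were not called: Rpl24 (0.07 ± 0.19), Rpl30 (0.08 ± 0.75), Rpl23a (0.36 ± 0.52) and Rps29 (0.43 ± 0.71, log2, SE). Rpl23a and Rps29 were near the bottom of the range, at 1.68 to 5.91 CPM and 0.175 to 7.93 CPM over the 12 libraries.

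In HFSC against ORS, 32 of 82 genes fell and 0 rose, where 14.2% of all genes tested fell and 14.4% rose, with a median of -0.53 against 0.03 over all genes. The count was 15 of 31 for the small subunit, 11 of 43 for the large subunit, 2 of 3 for the stalk and 4 of 5 for paralogue-type genes. Rps19, a protein of the small subunit's head whose human gene is mutated in Diamond-Blackfan anaemia, averaged 543 ± 17.9 CPM in HFSC and 998 ± 184 CPM in ORS libraries (SD, n = 4 each), a log2 change of -0.78 ± 0.14 (SE; adjusted p = 0.0012). Rpl32, Rps20 and Rps3a were also among the 10 largest changes (-0.69 ± 0.11, -0.75 ± 0.16 and -0.72 ± 0.13, log2, SE). No HFSC library reached the lowest ORS library for 44 of 82 genes, against 17% of all genes. The number of genes called lower, 32 with all libraries, moved with single libraries, as did the number over all genes tested. The median lay between -0.64 and -0.38 whichever library was left out.

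In ORS against IFE, 24 of 82 genes fell and 0 rose relative to other genes, where 7.46% of all genes tested fell and 8.31% rose, while on the deposited scale 26 of 82 were called higher and 0 lower, where 46% of all genes were called higher and 3.25% lower. The median was -0.53, against 0.12 over all genes. They were 14 of 31 small subunit genes, 8 of 43 large subunit genes, 2 of 3 stalk genes and 0 of 5 paralogue-type genes. Together with Rplp1, described above, the genes Rpl41, Rps15, Rps26, Rps21, Rps15a, Rplp0, Rps25 and Rpl14 were among the 10 largest changes called, by -0.97 ± 0.15 for Rpl41 to -0.72 ± 0.12 for Rpl14 (log2, SE), while on the deposited scale these 8 had values above 0, at 0.021 for Rpl41 to 0.27 for Rpl14, and Rplp1 was at -0.17, none called. All 4 ORS libraries lay below all 4 IFE libraries for 38 of 82 genes, against 9.57% of all genes. The number called moved with single libraries, for these genes and for all genes tested. Leaving out 1 library, the median of the 82 lay between -0.68 without ORS knockout E358 and -0.40 without ORS knockout E359. Without both libraries numbered E341 it was -0.51 over 81 genes, against 0.12 over all genes. The ORS knockouts E358 and E359 held the highest and the lowest share of the 4 ORS libraries.

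The deposited scale divides by the library total, and the median of the 82 genes in ORS against IFE was 0.45 on it. On that scale the median of all genes was 1.11, so ribosomal protein genes lay 0.66 below it, as they lay 0.65 below it after scaling. On the deposited scale 56 of 82 genes were called lower in HFSC against IFE, where 15.8% of all genes were, and 70 of 82 in HFSC against ORS, where 41.9% of all genes were and the median of all genes was -0.91.

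Transcript length moved with the same contrasts. Ribosomal protein genes are short: 43 of the 82 tested had exons of at most 1000 bases in all. The median log2 fold change of these 43 was -1.11 in HFSC against IFE, against -1.06 for the 315 other genes of that length with a level above the median. In HFSC against ORS these medians were -0.56 for ribosomal protein genes and -0.54 for the others, and in ORS against IFE -0.58 and -0.53 (n = 330). The share called lower was 72.1% of the 43 and 68.6% of the others in HFSC against IFE, 32.6% and 46.7% in HFSC against ORS, and 23.3% and 35.8% in ORS against IFE. Other short abundant genes thus had medians close to those of ribosomal protein genes. From 1000 to 2000 bases, the 29 ribosomal protein genes had a median of -1.03 in HFSC against IFE, and abundant other genes -0.40 (n = 1220). From 2000 to 4000 bases the values were -0.72 (9 genes) and 0.09 (n = 2468). Exon length was known for 89.7% of genes tested, and its part in the result was not tested.

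**Figure D3:**
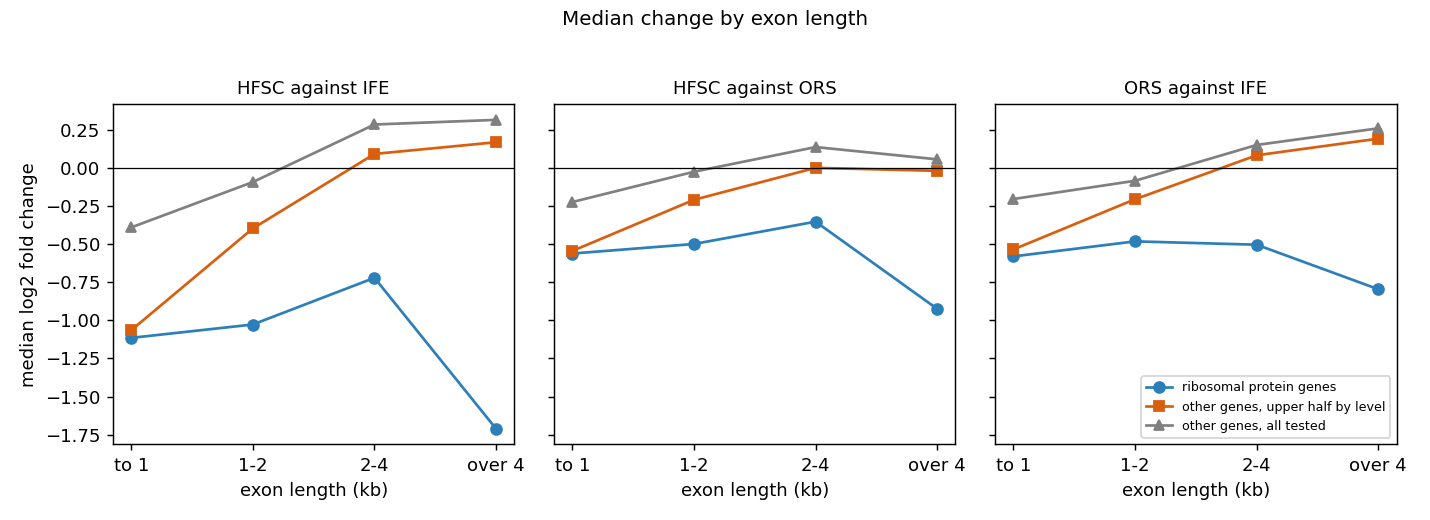
Median log2 fold change by summed exon length (kb) for ribosomal protein genes, for other genes with a level above the median, and for all other genes tested, in 3 panels for the 3 compartment contrasts. Up to 1 kb ribosomal protein genes and other abundant genes lie together (-1.11 and -1.06 in HFSC against IFE); between 1 and 4 kb the ribosomal protein genes lie lower, and the last bin holds 1 of them.

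Markers of other cells differed between the compartments as well, in both directions. The 14 markers of leukocytes, fibroblasts, endothelium, melanocytes and Merkel cells summed to 74.8 to 130 CPM in HFSC libraries, 94.8 to 142 CPM in ORS libraries and 204 to 305 CPM in IFE libraries. Most of the IFE sum was Dcn, a fibroblast gene, at 125 to 268 CPM in IFE libraries. Without it the sums were 74.8 to 130 CPM in HFSC, 54.5 to 96.3 CPM in ORS and 27.2 to 80.3 CPM in IFE libraries. Col1a1, another fibroblast gene, was highest in ORS (5.99 to 19.1 CPM) and at most 0.32 CPM in IFE, and Cd74, of antigen-presenting cells, was highest in HFSC (18.1 to 44.2 CPM). Of the 14, 11 had reads in HFSC, 9 in ORS and 8 in IFE. Ptprc, Cd207 and Krt20, which define leukocytes, Langerhans cells and Merkel cells, were at 0 in every compartment. The part of these cells in the share was not tested.

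Other genes of the ribosome and of translation were compared through fixed lists. Of all genes tested in HFSC against IFE, 16.3% fell and 19.7% rose, with a median of 0.18. Of 4 further ribosomal genes, 3 fell in HFSC against IFE, among them Rpl36al (-1.74 ± 0.18) and Gnb2l1 (-0.80 ± 0.11, log2, SE), the small subunit scaffold also called Rack1. Of 18 translation factors and other TOP transcripts, 13 fell and 2 rose. Hnrnpa1 (-1.44 ± 0.16), Eif3k (-1.34 ± 0.12) and Npm1 (-1.28 ± 0.12) fell, while Eef2 (1.32 ± 0.14), the elongation factor that moves the ribosome along, rose. Ribosome biogenesis genes fell in 15 of 38 cases, with 0 higher and a median of -0.40, led by Nop10 (-1.81 ± 0.21), Rrs1 (-1.60 ± 0.49), Nhp2 (-1.59 ± 0.16) and Nop16 (-1.29 ± 0.17). Genes of the mitochondrial ribosome fell in 51 of 76 cases (median -0.998), led by Mrps28 (-1.97 ± 0.21) and Mrpl42 (-1.97 ± 0.16). Genes of oxidative phosphorylation fell in 65 of 81 cases (median -1.30), with 1 higher, led by Cox6b2 (-3.54 ± 0.34) and Ndufa4l2 (-2.96 ± 0.60). Genes outside the cytosolic ribosome thus fell in the same contrast. In the knockout comparisons 0 genes of these lists were called.

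The regulators did not run in parallel. Myc was at 198 and 157 CPM in libraries labelled knockout and 179 and 207 CPM in control libraries of HFSC, 0.191 and 6.04 CPM in knockout and 8.93 and 5.31 CPM in control libraries of ORS and 32.7 and 75.5 CPM in knockout and 78.4 and 86.8 CPM in control libraries of IFE. It was highest in HFSC, where ribosomal protein transcripts were lowest, and lowest in ORS. Its log2 fold change was 5.61 ± 0.55 in HFSC against ORS (SE, adjusted p = 1.95e-05) and -4.13 ± 0.66 in ORS against IFE (SE, adjusted p = 0.0021), and 1.48 ± 0.55 in HFSC against IFE (SE, adjusted p = 0.054), which was not called. Mycn, its relative, was the reverse, at 2.93 ± 0.38 in ORS against IFE and -3.82 ± 0.41 in HFSC against ORS. Larp1, which binds TOP transcripts, fell by 0.49 in HFSC against IFE (adjusted p = 0.0445), Mtor was at -0.02 ± 0.42, and Eif4ebp1, an mTOR substrate that blocks cap binding, at 0.08 ± 0.21 (log2, SE, both not called). Tsc2, which inhibits mTOR signalling, and Maf1, a repressor of RNA polymerase III, rose, at 1.43 ± 0.19 and 1.13 ± 0.20. Rheb and Akt1, which activate mTOR signalling, fell, at -1.14 ± 0.16 and -1.10 ± 0.19.

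No difference in the share of ribosomal protein reads between knockouts and controls passed its test. The difference of knockout and control means was 0.068 percentage points in HFSC (p = 0.333, two-sided exact permutation test), 0.0138 in ORS (p = 1) and -0.281 in IFE (p = 0.667), and 2 against 2 libraries cannot give less than 0.333. Over all 3 compartments, with labels permuted within each, the mean difference was -0.0663 (exact permutation p = 0.704, smallest possible 0.00926). In ORS the 2 knockouts lay on either side of the controls. The HFSC libraries labelled knockout both lay above both HFSC controls.

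By gene, 0 of 82 were called in IFE knockouts, 0 of 82 in ORS knockouts, 0 of 81 in HFSC libraries labelled knockout and 0 of 82 for the difference of the ORS and IFE effects (limma). Of all genes tested, 0%, 0%, 0.0363% and 0% were called, so these fits called almost no gene of any kind (in HFSC 0.029% higher and 0.00726% lower). At an unadjusted p under 0.05 they held 2, 1, 0 and 1 ribosomal protein genes, or 2.44%, 1.22%, 0% and 1.22%, against 7.54%, 3.38%, 7.64% and 4.78% of all genes. Limma-voom also called 0 in each. The median log2 fold change was 0.09 in HFSC, -0.02 in ORS and -0.10 in IFE, against 0.01, -0.03 and -0.02 over all genes. Its sign rested on single libraries in ORS and IFE: in ORS it was -0.29 without knockout E358 and 0.26 without E359, and in IFE -0.21 and 0.04. In HFSC it lay between 0.05 and 0.10 whichever HFSC library was left out. Both HFSC libraries labelled knockout lay above both controls for 29 of 82 genes (35.4%), against 18.6% of all genes, and both IFE knockouts lay below both controls for 22 (26.8%), against 16.3%. Genes of 1 library share its scaling, so these numbers are not that many separate observations.

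**Figure D4:**
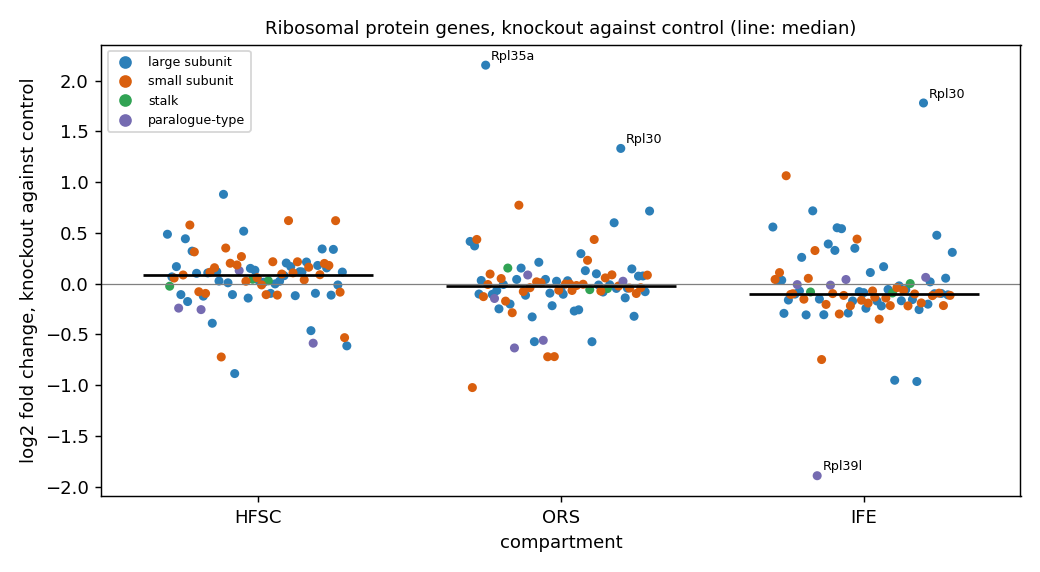
Log2 fold change of knockout against control for each ribosomal protein gene in HFSC, ORS and IFE, coloured by role, with lines at the medians (0.09, -0.02 and -0.10). Most genes lie close to 0, none was called, and the labelled genes beyond 1.1 (Rpl35a, Rpl30 and Rpl39l) rest on 1 or 2 libraries or on very few reads.

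Rpl24, which sits at the interface of the subunits and whose mutation lowers protein synthesis in the mouse, was the 1 gene of the 82 with both knockouts below both controls in IFE as well as in ORS, a pattern held by 2.86% of all genes. The opposite pattern was seen for 0 of the 82 and for 2.31% of all genes. It had 47.1 and 57.2 CPM in knockout and 89.7 and 113 CPM in control libraries of IFE, and 45.6 and 58.2 CPM in knockout and 81.8 and 69.9 CPM in control libraries of ORS. The knockouts thus reached 0.517 times the control level in IFE. Its log2 fold change was -0.95 ± 0.32 (SE; unadjusted p = 0.013, adjusted p = 0.522) in IFE, and -0.57 ± 0.32 (SE; unadjusted p = 0.101, adjusted p = 1) in ORS. In HFSC the order was the other way, at 84.4 and 83.6 CPM in libraries labelled knockout and 73.2 and 70.8 CPM in controls. Of its 100-base words, 80.1% also occur in other annotated genes, so its reads may be shared.

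Several large fitted values came from 1 library. Rpl30, which binds its own transcript in yeast, was at 98.4 and 118 CPM in IFE knockouts and 7.13 and 129.8 CPM in IFE controls E341 and E360. In ORS it was at 108 and 76 CPM in knockouts and 12.6 and 96.3 CPM in controls E341 and E344. Both libraries numbered E341 were low, and the lowest of the other 10 libraries was at 55.1 CPM. The log2 fold change was 1.78 ± 1.15 (SE; adjusted p = 0.802) in IFE and became -0.25 without control E341, and 1.33 ± 1.15 (SE; adjusted p = 1) in ORS, where it became -0.10 without control E341. Rps2 was likewise at 31 and 118 CPM in IFE controls E341 and E360 and 129 and 125 CPM in IFE knockouts, but at 95.5 and 108 CPM in ORS controls. Its change in IFE was 1.06 ± 0.49 (SE; adjusted p = 0.676), and 0.13 without control E341.

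**Figure D5:**
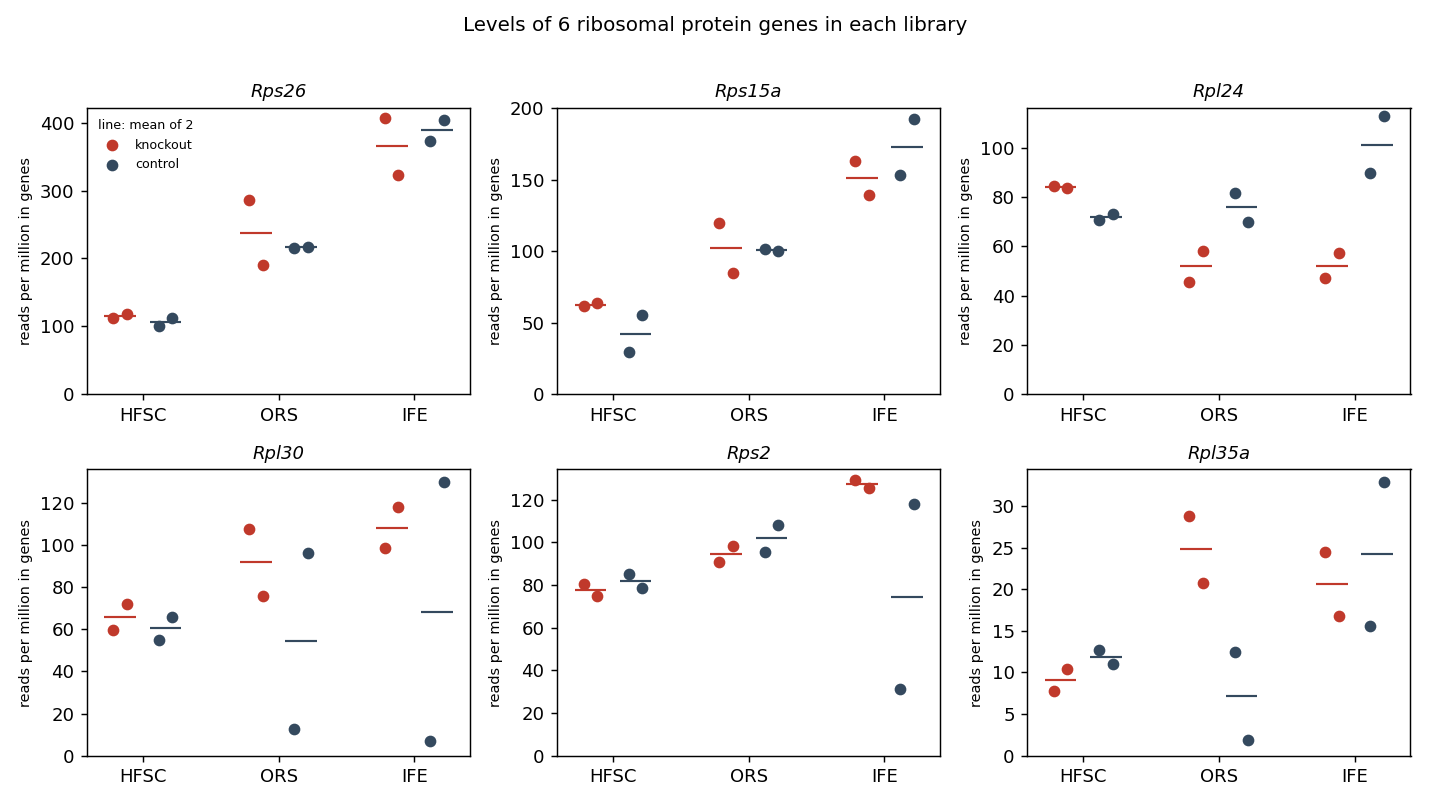
Level of 6 ribosomal protein genes in each library, in reads per M reads in genes, by compartment, with knockout and control libraries in separate columns and lines at the mean of 2. Rps26 and Rps15a step up from HFSC to IFE, Rpl24 is lower in both knockouts of ORS and IFE, and Rpl30, Rps2 and Rpl35a each show a control library far below the other of its group.

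Rpl35a, whose human gene is also linked to Diamond-Blackfan anaemia, was at 28.9 and 20.8 CPM in ORS knockouts and 12.4 and 1.85 CPM in ORS controls E341 and E344. The low value of E344 set the log2 fold change of 2.15 ± 0.82 (SE; unadjusted p = 0.0242, adjusted p = 1), which was 0.92 without that library and 3.39 without control E341. The X-linked Rpl39, a short protein of the peptide exit tunnel, was at 98.7 and 68.3 CPM in IFE knockouts and 88 and 292 CPM in IFE controls E341 and E360. Control E360 stood above all other 11 libraries. The other X-linked genes Rps4x, Rpl10 and Rpl36a had changes of -0.12 ± 0.23, 0.56 ± 0.46 and 0.31 ± 0.73 in IFE knockouts, which were female, against male controls (log2, SE, not called). Rpl39l, the testis-type paralogue of Rpl39, had 0 reads in both IFE knockouts and 16 and 15 reads in the IFE controls. A count of 0 allows up to 3 reads, and outside these controls only ORS control E341 had any.

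The remaining genes at the ends of the knockout comparisons were mostly low, and none was called. In HFSC the lowest fitted changes were those of Rpl12 (-0.88 ± 0.54), Rps13 (-0.72 ± 0.83) and Rpl39 (-0.61 ± 0.45), and the highest those of Rpl23a (0.88 ± 0.67), Rps15a (0.62 ± 0.33) and Rps10 (0.62 ± 0.49, log2, SE). Rpl12, a protein at the base of the stalk, was at 4.46 and 7.62 CPM in libraries labelled knockout and 13.8 and 9.02 CPM in control libraries of HFSC, and Rps10, of the small subunit's head, at 11.6 and 10.7 CPM in libraries labelled knockout and 8.45 and 5.81 CPM in control libraries. For both genes the libraries labelled knockout and the controls did not overlap. The value of Rpl39 rested on L97, at 30.2 CPM against 70.7 to 81.1 CPM in the other 3 HFSC libraries, and was 0.12 without it. In ORS, Rps12 (-1.02 ± 0.85), Rps23 (-0.72 ± 0.65) and Rps13 (-0.72 ± 0.89) had the lowest fitted changes, and Rps16 (0.77 ± 0.91) followed Rpl35a and Rpl30 among the highest (log2, SE). Rps23, a protein of the decoding centre, was at 17 and 5.8 CPM in knockout and 19.2 and 14.3 CPM in control libraries of ORS, where knockout E359 was the low one; without it the change was 0.048. Rps12 was at 2.63 and 1.38 CPM in knockout and 3.83 and 5.03 CPM in control libraries of ORS, with both knockouts below both controls, and Rps16 at 8.46 and 3.24 CPM in knockout and 2.78 and 2.9 CPM in control libraries. The difference of the ORS and IFE effects ran from -1.19 ± 0.69 for Rps2, -1.16 ± 1.26 for Rps13 and -1.12 ± 0.80 for Rpl12 to 1.52 ± 1.29 for Rps16, 1.56 ± 0.70 for Rpl39 and 2.31 ± 1.15 for Rpl35a (log2, SE).

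Ribosomal protein genes differed widely in level. Their proteins occur in about equal numbers in a ribosome, yet mean CPM per kb of exon was as low as 1.11 for Rps13 among genes that are not paralogue-type. The 10 genes with the most reads held 59.2% of all ribosomal protein reads, with Rpl4 (2214 CPM), Rps3 (2104), Rpl41 (1806) and Rpl8 (1746) among them. These 4 fell in HFSC against IFE, at -0.71 ± 0.12 for Rpl4, -0.92 ± 0.08 for Rps3, -1.43 ± 0.14 for Rpl41 and -0.90 ± 0.10 for Rpl8 (log2, SE). Outside the paralogue-type genes, fewest reads went to Rps13 (1.54 CPM), Rps29 (1.60), Rps27 (3.15) and Rpl23a (3.59). Sequence shared with other genes ran with this order. The share of a gene's 100-base words that recur in other annotated genes had a median of 5.95% over the 10 genes highest per kb and 38.2% over the 10 lowest, and Spearman's rho between level per kb and this share was -0.46 over 77 genes that are not paralogue-type, as a description. Reads that fit several places can be dropped or moved in counting, and no source used here states how the authors treated them. The part of such loss in the low level of genes such as Rpl23a, with 80.0% of words shared, was not tested.

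The compartment differences were present in genes that share little sequence. Of 36 genes with under 25% of words shared, 34 were tested. Of these, 30 fell in HFSC against IFE, 21 in HFSC against ORS and 17 in ORS against IFE, with 0 higher in each. Of all genes tested, 16.3%, 14.2% and 7.46% fell in these contrasts, and 19.7%, 14.4% and 8.31% rose. The medians of the 34 were -1.08, -0.51 and -0.60. Genes with and without a run of C or T near the start gave close values, with no test between them. In HFSC against IFE, 18 of 28 with a run fell (median -0.99) and 23 of 33 without one (median -1.07). In that contrast 16.3% of all genes tested fell. The ratio of reads of large to reads of small subunit genes was 1.08 ± 0.03 in HFSC, 0.991 ± 0.037 in ORS and 0.996 ± 0.028 in IFE (SD, n = 4 each).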

How the data were processed

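RNA labelled as total RNA was sequenced in 12 libraries of sorted mouse skin cells. The labels' protocols name PicoPure for isolation and SMARTer Ultra for copying, with 150 bp paired reads. The authors deposited 1 log2 value per gene and library, of reads per M of a library total, where genes at 0 reads carry a floor equal to 0.9 read. Per the submitters' processing notes, the authors used Trim Galore, DESeq2 and the build mm10, whose roles are not given. No source used here states the aligner, the counter or the strand setting. Whole reads were recovered from the deposited log2 values (at least 99.99% of values within 0.2 reads).

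Reads were turned into CPM, scaled by TMM (trims of 30% and 5%) and tested as log2(CPM + 0.5) by limma 3.58.1 in R 4.3.3, with a trended and robust prior. Tests were two-sided, with Benjamini-Hochberg adjustment over all genes, and called under 0.05. The pseudocount understates changes of low genes. A gene needed 10 reads, at the median library size, in 2 libraries and 15 in all. IFE and ORS libraries were fitted together, HFSC knockouts within HFSC, and HFSC against ORS or IFE over all 12 libraries, averaging genotypes; these compartment contrasts share libraries. Shares were tested by exact permutation in Python 3.11.15 with scipy 1.17.1. Intervals and floors cover counting error only. The code was tested on simulated data. Shared sequence was measured as 100-base words of the longest coding transcript (GENCODE M21), and exon length as the union of annotated exons.

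The members and lists were chosen with earlier results of these data known. Named are, per comparison, the called members, at most 10 by size, or where fewer than 6 were called the 3 highest and 3 lowest, with the stalk, Rpsa, X-linked and paralogue-type genes and the 5 most abundant. From the other lists the rule takes called genes, at most 4 a list and comparison, and the regulators Myc, Mtor, Larp1 and Eif4ebp1; these lists are described for HFSC against IFE. Rpl15, Rpl22 and the lowest-level genes were named, and the exon length bins and start windows chosen, after values were seen. Alternatives covered scaling, pseudocount, filter, voom, the libraries fitted and each library left out. Sequences come from RefSeq (GRCm38.p6). A few genes that this rule takes are not reported here.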

Additional observations from a re-analysis of the deposited data

How the results depend on the processing

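The share of ribosomal protein reads kept its direction between compartments when the 20 most abundant other genes, the paralogue-type genes or genes with 25% or more of shared words were left out, and with pseudogene rows or the other ribosomal genes added. As a percent of the library total, ORS against IFE turned to 0.344 percentage points (exact permutation p = 0.0286) and HFSC labelled knockout against control to -0.00293. ORS knockout against control became -0.0128 with genes under 25% of words shared. Leaving out 1 library, the difference lay between -1.21 and -0.946 for ORS against IFE, -1.003 and -0.736 for HFSC against ORS, -2.07 and -1.88 for HFSC against IFE, -0.386 and 0.413 for ORS knockouts, -0.517 and -0.044 for IFE knockouts, 0.0312 and 0.105 for HFSC libraries labelled knockout, and -0.20 and 0.0669 over all knockouts. With 4 against 3 libraries the exact test cannot fall below 0.0571, so these leave-one-out values bear on size only.

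In ORS against IFE, 17 to 35 genes were called lower under other scalings within reads in genes, pseudocounts, filters, voom or the 12-library fit. Of all genes tested, 879 to 1373 were called lower in these settings. On the deposited scale 26 ribosomal protein genes were called higher, where 46% of all genes were. Contrasting only controls, 8 were called lower, and contrasting only knockouts, 4, where 463 and 475 of all 14449 genes tested were. These contrasts kept the scaling, filter and spread of the fit over both genotypes. Without both E341 libraries the median was -0.51, against 0.12 over all genes. For HFSC against ORS the number called lower was 70 on the deposited scale (41.9% of all genes). Within the 12-library fit it was 17 contrasting only controls and 7 contrasting only knockouts, where 1274 and 1158 of all 15251 genes were called lower. It was 21 of the 34 genes tested with under 25% of words shared, where 14.2% of all genes were. For HFSC against IFE it was 45 to 60, and 30 of those 34 genes, where 16.3% of all genes fell in the main fit. Leaving out 1 library gave 11 to 37, 19 to 43 and 51 to 59 genes for ORS against IFE, HFSC against ORS and HFSC against IFE. Of all genes tested, 637 to 1097, 1582 to 2379 and 1974 to 2505 were then called lower. These last settings hold fewer libraries or genes, and the cause of the other shifts was not tested. Knockout comparisons gave 0 calls under every alternative run.

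Titles share the numbers E341, E358 and E359 between IFE and ORS. Deviations of same-numbered libraries correlated at 0.0488 for control E341 and 0.0555 for knockouts over all genes, and the main fit did not pair libraries. Over the 82 ribosomal protein genes these correlations were 0.387 and -0.0306. With so few libraries they cannot decide whether a shared number marks the same animal, and Rpl30 was low in both libraries numbered E341. With the block as a random effect 30 genes were called lower in ORS against IFE, where 1213 of all 14449 genes were. With a fixed block over 6 libraries 19 were, where 771 of all 14018 genes were. The paired difference in share was -1.02 (exact p = 0.25, over 3 pairs).

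Of the genes named, some fitted directions turned, none of them called. On the deposited scale ORS against IFE became 0.021 for Rpl41, 0.033 for Rps15, 0.13 for Rps26, 0.18 for Rps21, 0.19 for Rps15a, 0.25 for Rplp0, 0.25 for Rps25 and 0.27 for Rpl14. Leaving out 1 library, the knockout change lay between -0.25 and 3.81 for Rpl30 in IFE, -0.10 and 2.77 for Rpl30 in ORS, -1.48 and 0.048 for Rps23 in ORS and -1.35 and 0.12 for Rpl39 in HFSC. Without both E341 libraries Rpl30 was at -0.25 in IFE and -0.10 in ORS. Over all named genes and alternatives, 61 values lost their call, 15 reversed, and 959 kept direction and call. Of the 61, 12 lost it contrasting only knockout libraries and 9 without both E341 libraries. The settings by shared words, by genotype and without both E341 libraries were chosen after seeing the data.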
